A study of Mus musculus with 6 samples.

Results

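The genes described here encode the nuclear lamins and the proteins that tie them to the inner nuclear membrane, to chromatin and to the cytoskeleton. There are 10 of them among the 55487 rows of the deposited gene table, chosen by symbol: Lmnb1, Lmnb2, Lmna, Lbr, Emd, Tmpo, Banf1, Sun1, Sun2 and Syne2. Each symbol matched 1 row, and all 10 genes were among the 18227 rows with a mean of at least 10 normalized reads that were tested. A normalized read is a read count divided by 1 scaling factor per library.

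RNA was sequenced from sorted cells of the subventricular zone of mice, the wall of the lateral ventricle where neural stem cells persist in the adult and give rise to migrating neuroblasts. The heterozygous group carried E2F1(+/-);E2F3(F/+) and the knockout group E2F1(-/-);E2F3(F/F), where F is a floxed allele, so E2f1 and E2f3 differ together between the groups and their separate contributions cannot be told apart. Both groups carried an inducible Nestin-driven Cre and an EYFP reporter at R26 on a mixed C57BL/6;Sv/129;FVB/N background, and both received tamoxifen for 5 days at 200 mg/kg per day from 6 to 10 weeks of age. Cells were collected 10 days after the last dose. Nestin is active in neural stem and progenitor cells, so the sorted cells are those lineages and whatever else expressed the reporter. Each library pooled several mice (at least 200000 sorted cells), and each genotype had 3 libraries, A, B and C. The question, as the title gives it, concerns what activator E2F transcription factors do for the resting and the dividing state of these stem cells.

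Libraries held 19798675 to 25982361 reads in genes. E2f1 stood at 1152, 1388 and 1030 normalized reads in heterozygous libraries A, B and C and at 375, 483 and 516 in the knockout libraries, which is -1.38 ± 0.22 (SE) on the log2 scale with an adjusted p = 0.00559 from limma. The knockout level was thus 38.5% of the heterozygous one, and reads counted over the whole gene do not show which part of E2f1 they come from. E2f3 stood at 293, 205 and 253 against 324, 231 and 245 (adjusted p = 0.845), and reads counted over the whole gene do not show whether its floxed part was removed. All 12 proliferation markers and all 12 neuroblast markers examined were lower in knockout libraries. Their summed levels were 30415 to 53385 and 74320 to 117240 normalized reads in heterozygous libraries, against 5239 to 9418 and 13501 to 17286 in knockout libraries. The summed level of 12 quiescent stem cell and astrocyte markers ranged from 291241 to 436806 in heterozygous and from 386197 to 656341 in knockout libraries. Of these 12, limma called 3 higher, edgeR 3 and DESeq2 7. In such bulk samples, fewer cells of a type and less RNA per cell cannot be told apart. Other cell types left reads too. The summed level of 10 ependymal markers was 70193, 43430 and 15228 in knockout A, B and C against 10531 to 12826 in heterozygous libraries. Limma called 7 of these 10 higher, edgeR 10 and DESeq2 10. The sum of 10 endothelial markers was 32466, 12205 and 3939 against 5453 to 6018 (limma called 0 higher, with 2 at an unadjusted p under 0.05, edgeR 0 and DESeq2 4). The sum of 10 mural and fibroblast markers was 34303, 28280 and 13188 against 9021 to 18564 (limma called 2 higher, edgeR 3 and DESeq2 5). Sums were 4230 to 15501 against 2865 to 10764 for 10 microglial markers and 76907 to 95609 against 49504 to 71255 for 10 oligodendrocyte markers. Among these 50 markers Lum alone was at 0 in any library, in the 3 heterozygous libraries and knockout C.

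As background, lamins are intermediate filament proteins that form a meshwork under the inner nuclear membrane. B-type lamins, encoded by Lmnb1 and Lmnb2, keep a lipid anchor and stay close to the membrane, whereas lamins A and C, the splice products of Lmna, are also found inside the nucleus, and Lmna expression is generally low in neural progenitors and higher in stiff or contractile tissues. The lamin B receptor (Lbr), LAP2 proteins (Tmpo) and emerin (Emd) sit in the inner membrane and hold chromatin against it, and the small protein BAF (Banf1) bridges DNA and the LEM domain that emerin and LAP2 share. SUN proteins (Sun1, Sun2) cross the inner membrane and bind nesprins (Syne2) in the outer membrane. Together these form the LINC complex, which couples the nucleus to the cytoskeleton and is needed for nuclear movement in migrating neurons and in the ventricular zone.

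In knockout libraries 6 of the 10 genes fell and none rose. The genes that fell were both B-type lamin genes, Lbr, Tmpo, Banf1 and Syne2, with log2 changes from -1.85 to -0.85. Lmna, Emd, Sun1 and Sun2 did not pass the test. The count of 6 lower genes (limma, adjusted p under 0.05) compares with 8.59% of all tested rows called lower, and the count of 0 higher genes compares with 7.23% called higher. At an unadjusted p under 0.05 limma had 1 higher gene, Lmna, and edgeR and DESeq2 called none higher. In the same 6 genes the highest knockout library was below the lowest heterozygous one, an arrangement found in 20.2% of tested rows. None of the 10 had every knockout library above, against 18.5% of tested rows. The median log2 difference was -0.88 for the 10 genes and 0.05 over all 18227 rows. In the authors' deposited table the same 6 genes had an adjusted p under 0.05 and a negative fold change, where 6.83% of rows with an adjusted p did. The plot of each library's level shows the separation gene by gene.

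**Figure D1:**
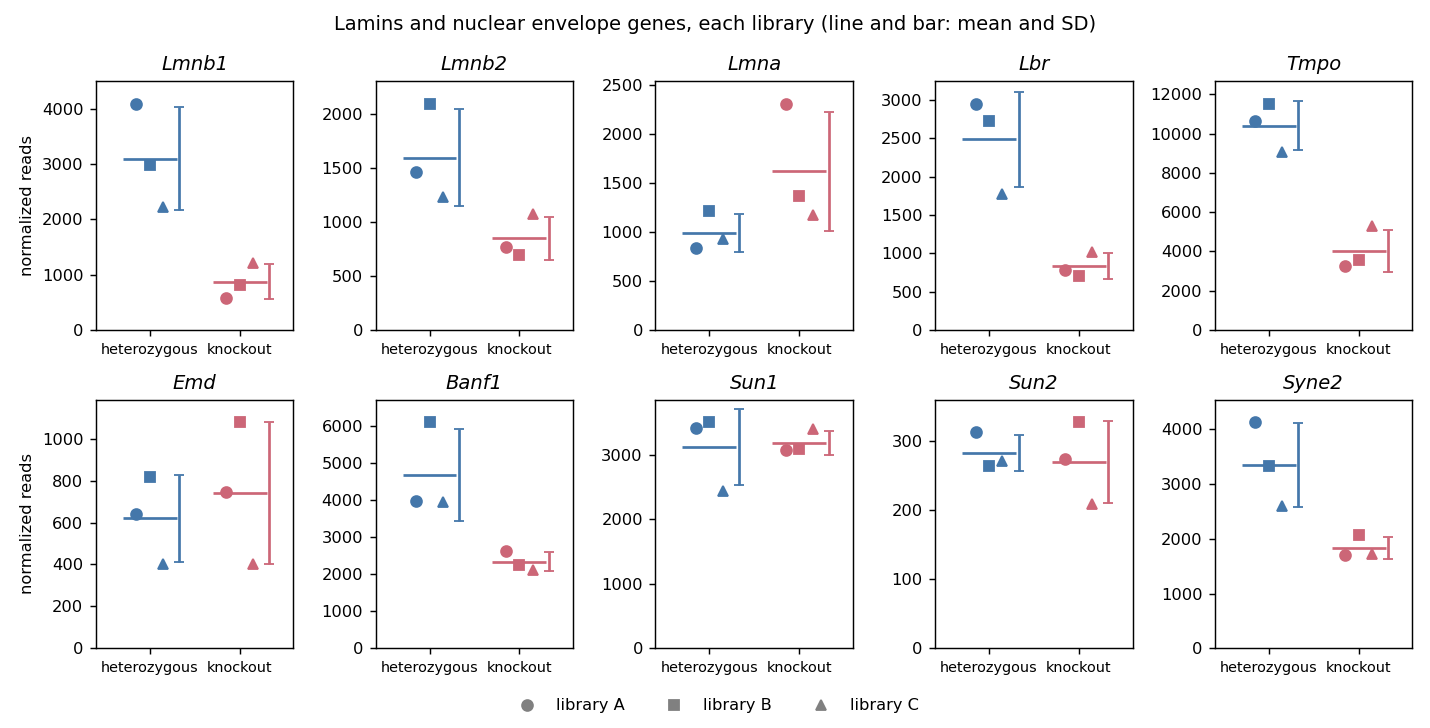
Normalized reads of the 10 genes in each library (y axis, linear and starting at 0; circles, squares and triangles are libraries A, B and C; horizontal lines are means and bars SD, n = 3 per genotype). Knockout points lie below all heterozygous points for Lmnb1, Lmnb2, Lbr, Tmpo, Banf1 and Syne2 and overlap them for Lmna, Emd, Sun1 and Sun2.

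Among the lamins, Lmnb1 (ENSMUSG00000024590; GRCm38 chromosome 18, 56707813 to 56753424, plus strand) had the largest decrease of the 10 genes. Heterozygous libraries A, B and C held 4092, 2983 and 2225 normalized reads, and knockout libraries held 584, 817 and 1217. The lowest heterozygous library was 1.83 times the highest knockout library, so the groups did not overlap although each varied within itself (heterozygous A was 1.84 times heterozygous C, and knockout C was 2.09 times knockout A). The mean went from 3100 ± 939 to 872 ± 321 (SD, n = 3 each). On the log2 scale this was -1.85 ± 0.31 (SE, adjusted p = 0.0064), or 3.60-fold lower with a 95% interval of 2.24 to 5.79.

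Lmnb2 (ENSMUSG00000062075; chromosome 10, 80901203 to 80918245, minus strand), the other B-type lamin gene, stood at 1465, 2099 and 1234 normalized reads in heterozygous and 768, 699 and 1079 in knockout libraries. The groups did not overlap, but heterozygous C and knockout C were only 1.14-fold apart. Its log2 change was -0.90 ± 0.26 (SE, adjusted p = 0.0431), 1.87-fold lower with an interval of 1.25 to 2.79. The call for Lmnb2 lies close to the threshold and was lost without heterozygous A, heterozygous B, knockout A or knockout B (log2 -0.95, -0.69, -0.84 and -0.78, adjusted p of 0.102, 0.144, 0.0806 and 0.169) and without the filter on low values (0.0549). It was also lost without the mean-variance trend of limma (adjusted p = 0.107).

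Lmna (ENSMUSG00000028063; chromosome 3, 88480147 to 88509956, minus strand) went the other way in its mean and did not pass the test. It stood at 832, 1211 and 932 normalized reads in heterozygous and 2311, 1370 and 1178 in knockout libraries. Knockout A was far above the rest, and knockout C lay just below heterozygous B, so the groups overlapped. The log2 difference was 0.66 ± 0.28 (SE, adjusted p = 0.126), with a 95% interval of 0.04 to 1.28. It was 0.38 without knockout A (adjusted p = 0.318) and 0.86 without knockout C (adjusted p = 0.045). The 3 knockout libraries had the same order for Lmna as for the summed ependymal, endothelial and mural markers given above, highest in A and lowest in C. Among heterozygous libraries Lmna was highest in B and lowest in A, as the endothelial sum was, whereas the ependymal sum was highest in A and the mural sum in C. The part of these cell types in the Lmna level was not tested.

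Reads per kb of exon allow the lamin genes to be set beside each other. In heterozygous libraries A, B and C, Lmnb1 made up 74.0%, 59.1% and 62.7% of the reads per kb of the 3 lamin genes, Lmnb2 18.3%, 28.7% and 24.0%, and Lmna 7.64%, 12.2% and 13.3%. In knockout libraries Lmnb1 made up 25.5%, 40.9% and 47.5%, Lmnb2 23.2%, 24.2% and 29.1%, and Lmna 51.3%, 34.9% and 23.3%. The Lmna share was thus higher, and the Lmnb1 share lower, in every knockout library than in any heterozygous library, while the Lmnb2 share overlapped. The mean Lmna share in knockout libraries was 36.5% ± 14.0 (SD, n = 3), 25.4 percentage points above the heterozygous mean, and the mean Lmnb1 share was 38.0% ± 11.3 against 65.3% ± 7.81. These shares carry no test, and without knockout A the Lmna difference was 18.1 points. The ratio of Lmna to Lmnb1 per kb was 0.103, 0.206 and 0.212 in heterozygous and 2.01, 0.852 and 0.491 in knockout libraries, so Lmna exceeded Lmnb1 in knockout A. With the longest annotated transcript as the length the knockout ratios were 2.85, 1.21 and 0.697, so Lmna then exceeded Lmnb1 in knockout B as well. The summed level of the 3 genes had a mean of 1590 ± 348 reads per kb in heterozygous and 770 ± 95.5 in knockout libraries, also without a test. Reads are counted over the whole Lmna gene, so lamin A and lamin C transcripts are not separated.

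**Figure D2:**
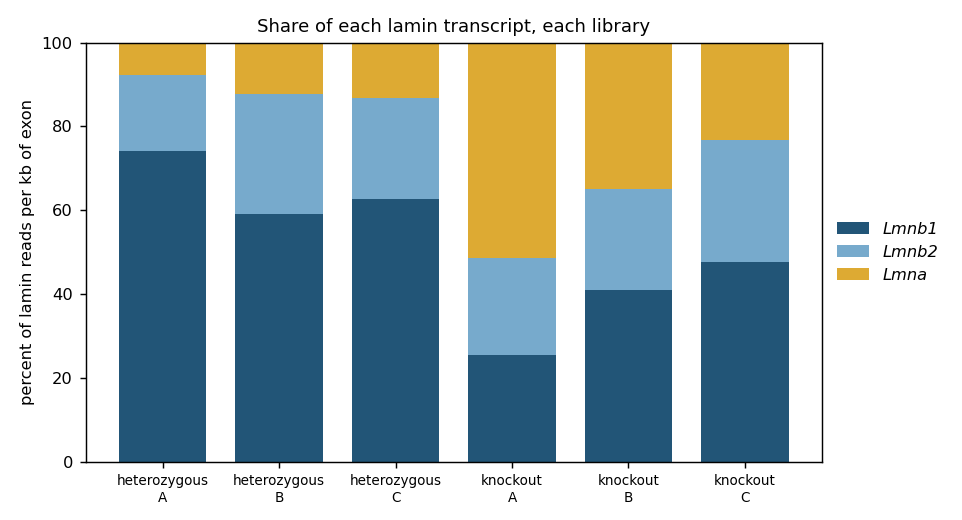
Share of each lamin gene in the summed reads per kb of exon of Lmnb1, Lmnb2 and Lmna (y axis, percent) in each of the 6 libraries (x axis). The Lmna part is 7.64% to 13.3% in heterozygous and 23.3% to 51.3% in knockout libraries, and the Lmnb1 part is 59.1% to 74.0% and 25.5% to 47.5%.

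The inner membrane proteins were not alike. Lbr (ENSMUSG00000004880; chromosome 1, 181815335 to 181843046, minus strand), which binds B-type lamins and heterochromatin and also acts as a sterol reductase, stood at 2955, 2725 and 1781 normalized reads in heterozygous and 777, 703 and 1021 in knockout libraries. The lowest heterozygous library was 1.74 times the highest knockout library. The log2 change was -1.56 ± 0.25 (SE, adjusted p = 0.00497), 2.95-fold lower with an interval of 2.01 to 4.32.

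Tmpo (ENSMUSG00000019961; chromosome 10, 91147571 to 91181315, minus strand), which encodes the LAP2 isoforms, stood at 10636, 11527 and 9068 normalized reads in heterozygous and 3264, 3545 and 5269 in knockout libraries, so the groups were 1.72-fold apart at their closest. The log2 change was -1.40 ± 0.22 (SE, adjusted p = 0.00508), 2.63-fold lower with an interval of 1.87 to 3.71. The 13 annotated transcripts of Tmpo, which include membrane-bound and nucleoplasmic LAP2 forms, are counted together.

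Emd (ENSMUSG00000001964; chromosome X, 74254687 to 74261548, plus strand), the emerin gene, stood at 643, 816 and 401 normalized reads in heterozygous and 744, 1078 and 401 in knockout libraries. The groups overlapped throughout, and library C was lowest in both. The log2 difference was 0.20 ± 0.38 (SE, adjusted p = 0.741), and its 95% interval of -0.66 to 1.06 leaves out a decrease as large as that of Syne2 or of any other gene that fell, but holds an increase as large as the difference in Lmna.

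Banf1 (ENSMUSG00000024844; chromosome 19, 5364638 to 5367168, minus strand) encodes BAF, which cross-links DNA and recruits LEM domain proteins as the envelope re-forms after mitosis. It stood at 3966, 6100 and 3957 normalized reads in heterozygous and 2620, 2260 and 2122 in knockout libraries. Heterozygous B was the highest, and the groups did not overlap. The log2 change was -0.98 ± 0.21 (SE, adjusted p = 0.0189), 1.97-fold lower with an interval of 1.41 to 2.75. It was not called without heterozygous B (-0.77, adjusted p = 0.0619) or without knockout B (-0.96, adjusted p = 0.0873). With all 6 libraries but without the mean-variance trend of limma, Banf1 was not called either (adjusted p = 0.0716). Eif1ad, which starts on the opposite strand, shares 428 bases of exon with Banf1, 28.6% of the exon bases of Banf1. Whether counting used strand is not given in the sources used here, so reads in those bases are uncertain. Eif1ad fell too (1795, 2025 and 1376 against 1030, 827 and 984 normalized reads, log2 change -0.86 ± 0.21, SE, adjusted p = 0.0262), but lost its call if heterozygous A (0.0897), heterozygous B (0.0984) or knockout B (0.13) was left out.

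In the LINC complex the SUN genes and Syne2 differed. Sun1 (ENSMUSG00000036817; chromosome 5, 139200637 to 139249840, plus strand) stood at 3416, 3501 and 2440 normalized reads in heterozygous and 3070, 3084 and 3399 in knockout libraries. The knockout values fell inside the heterozygous range. The log2 difference was 0.05 ± 0.19 (SE, adjusted p = 0.884), and its 95% interval of -0.39 to 0.48 leaves out changes as large as those of the 6 genes that fell. Sun2 (ENSMUSG00000042524; chromosome 15, 79724070 to 79742536, minus strand) stood at 313, 265 and 271 against 274, 328 and 208 normalized reads. Its groups overlapped, with a log2 difference of -0.09 ± 0.27 (SE, adjusted p = 0.849) and an interval of -0.70 to 0.52.

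Syne2 (ENSMUSG00000063450; chromosome 12, 75818134 to 76110926, plus strand) encodes nesprin-2, the giant outer membrane protein that links SUN proteins to actin and microtubule motors. It stood at 4126, 3325 and 2590 normalized reads in heterozygous and 1709, 2068 and 1718 in knockout libraries. The groups did not overlap, and the knockout libraries lay close together. The log2 change was -0.85 ± 0.21 (SE, adjusted p = 0.0281), 1.80-fold lower with an interval of 1.30 to 2.50. The call was lost without heterozygous A, heterozygous B, knockout A or knockout B (adjusted p of 0.0991, 0.0988, 0.0527 and 0.0831), with log2 values of -0.69, -0.84, -0.80 and -0.94. It was also lost without the mean-variance trend of limma (adjusted p = 0.0865).

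**Figure D3:**
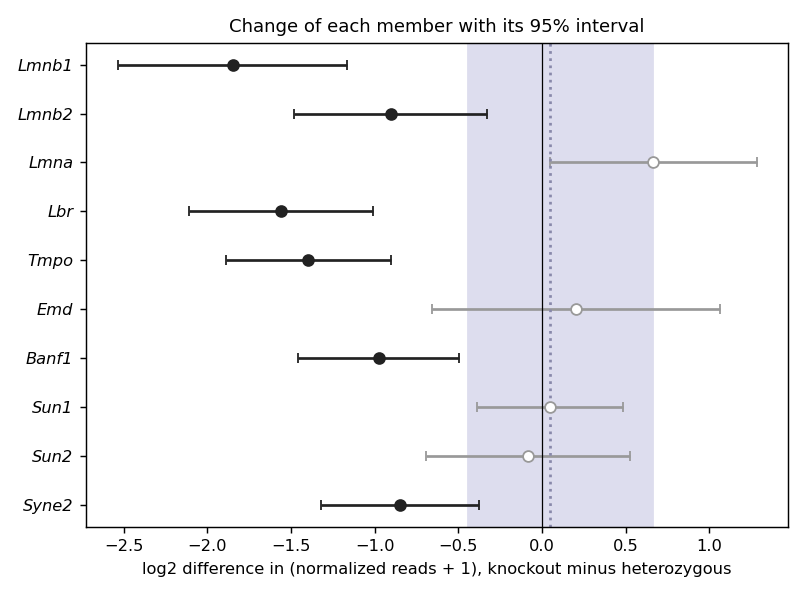
Log2 difference of normalized reads plus 1, knockout minus heterozygous (x axis), for each gene with its 95% interval (limma, n = 3 per genotype; filled points passed at adjusted p under 0.05, open points did not). The shaded band spans the quartiles of all 18227 tested rows (-0.44 to 0.66) and the dotted line is their median (0.05). The 6 filled points lie to the left of the band.

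The genes that fell differed in which library was highest. Among knockout libraries, C was highest for Lmnb1, Lmnb2, Lbr and Tmpo, as it was for Sun1, which did not pass the test, and for the summed proliferation, neuroblast, and quiescent and astrocyte markers, whereas A was highest for Banf1 and B for Syne2. Among heterozygous libraries, C was lowest for all 6 genes and for the summed proliferation and neuroblast markers. C was also the lowest of them for Emd and Sun1, which did not pass the test. The lowest heterozygous library was 3.23 times the highest knockout library for the summed proliferation markers and 4.30 times for the neuroblast markers, against 1.14 to 1.83 times for the 6 genes. The part of proliferating cells and neuroblasts in these levels was not tested.

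Over the 6 libraries, the tested rows with a mean of at least 50 whose log2 level followed Lmnb1 most closely were Ninl, Parm1 and Zfp933 (Pearson r = 0.998, 0.998 and 0.997). For Lmna they were 4930579K19Rik, Iscu and Lrwd1 (r = 0.996, 0.996 and 0.992). With 6 points that share 1 genotype difference such values are common. Of 14134 rows compared, 1732 had r over 0.9 with Lmnb1 and 360 with Lmna.

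Per kb of exon, the order of the 10 genes in heterozygous libraries was Banf1 (3124 ± 825 reads per kb, SD, n = 3), Lmnb1 (1047 ± 317), Tmpo (947 ± 113), Lbr (522 ± 131), Sun1 (411 ± 77.6), Lmnb2 (373 ± 104), Emd (246 ± 82.9), Lmna (170 ± 33.6), Syne2 (125 ± 28.8) and Sun2 (52.2 ± 4.83). Library ranges were apart between Banf1 and Lmnb1, between Tmpo and Lbr, and between Syne2 and Sun2, and overlapped for the other neighbours. In knockout libraries Banf1 remained first (1560 ± 172), and Sun1 (419 ± 24.5), Tmpo (366 ± 98.7), Lmnb1 (295 ± 108), Emd (294 ± 135) and Lmna (277 ± 104) followed with overlapping ranges. Lmnb2 (198 ± 47.2) and Lbr (175 ± 35.0) came next, and Syne2 (68.5 ± 7.65) and Sun2 (49.8, libraries from 38.5 to 60.5) were again last. With the longest annotated transcript as the length, Tmpo came before Lmnb1 and Sun1 before Lbr in heterozygous libraries, and in knockout libraries Tmpo came before Sun1 and Lmnb1 was sixth, after Emd and Lmna.

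The promoters are shown because the genotypes differ in E2F factors, which act at promoters. E2F proteins bind short GC-rich words after a run of T, and the CHR word is a site through which cell cycle genes are regulated. RefSeq start sites on GRCm38.p6 were available for 9 of the 10 genes, with 14 windows in all, and Lmnb1 had no entry. The 250 bases before each start were searched on both strands for the E2F words TTTCCCGC, TTTCGCGC, TTTGGCGC and TTTGCCGC and for the CHR word TTTGAA. An E2F word was found in 1 window of Tmpo and 1 of Banf1, so in 2 of the 14 windows. Of 32851 promoter windows of the same length 1.86% hold one. The CHR word was found in 1 window each of Tmpo, Lbr and Sun2. That is 3 of the 14 windows, near the 16.0% of all windows that hold it. Tmpo and Lbr are shown in full and Banf1 as 30 bases around its word, since these are the called genes with a match, with the words in capitals and each written 5′ to 3′ on the strand of the gene.
Tmpo promoter, chr10:91170551-91170800, minus strand: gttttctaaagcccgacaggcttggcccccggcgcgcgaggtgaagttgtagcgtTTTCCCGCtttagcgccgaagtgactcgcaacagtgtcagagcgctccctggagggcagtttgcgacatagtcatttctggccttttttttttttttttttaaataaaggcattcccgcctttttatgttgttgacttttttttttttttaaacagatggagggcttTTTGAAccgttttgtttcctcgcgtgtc
Lbr promoter, chr1:181842402-181842651, minus strand: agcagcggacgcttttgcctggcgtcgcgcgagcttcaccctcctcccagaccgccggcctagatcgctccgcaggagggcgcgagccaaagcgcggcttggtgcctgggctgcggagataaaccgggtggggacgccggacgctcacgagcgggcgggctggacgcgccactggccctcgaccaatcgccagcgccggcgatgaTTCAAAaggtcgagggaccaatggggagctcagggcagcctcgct
Banf1 site, chr19:5366939-5366968, minus strand: ggtcctccggaTTTCCCGCcccctcttcgt

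In Tmpo the E2F word begins 195 bases and the CHR word 28 bases before the second of its RefSeq starts, and the window before its first start held neither. The Lbr match is the CHR word read on the other strand, 45 bases before the start. In Banf1 the E2F word begins 81 bases before the first of its starts. All 250 bases of that Banf1 window lie in annotated exons, so the window is not shown in full. Lmnb2 and Syne2 fell without either word in these windows, and Sun2, which did not pass the test, has the CHR word. These are matches of letters, and binding was not measured.

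Of a wider set of 47 genes linked to the nuclear envelope, grouped by role, 16 fell (34.0%, against 8.59% of all tested rows). Another 3 rose (against 7.23% of all tested rows, so the count of 3 among 47 is near the background). The median log2 difference was -0.24. The set was chosen with earlier results of these data known. Of the genes that fell, 7 were among 15 genes for breakdown and resealing of the envelope in mitosis. These 7 include Plk1, Ccnb1, Ccnb2 and Cdk1, which are also proliferation markers. A further 6 were among 8 genes that tether or mark heterochromatin. Among 7 LINC partners 2 rose and 0 fell, against 7.23% and 8.59% of all tested rows. In a list this short a count of 0 is near the background. Syne1, which encodes nesprin-1, rose from 1389, 612 and 1466 to 5729, 4103 and 1574 normalized reads (3.09-fold, adjusted p = 0.0466), opposite in direction to its relative Syne2. Sun3 rose from 13.1, 34.3 and 19.0 to 157, 107 and 55.7 normalized reads (4.59-fold, adjusted p = 0.0309). Both had their highest value in knockout A and their lowest knockout value in C, the order of the ependymal, endothelial and mural markers, whose part was not tested. Neither was called when any 1 library other than knockout C was left out. With all 6 libraries, Syne1 lost its call with upper-quartile scaling, without the filter on low values and without the mean-variance trend (adjusted p of 0.0504, 0.0517 and 0.127). Sun3 lost its call without the trend (0.0567). For the count of 0 that fell, limma had 2 at an unadjusted p under 0.05 (Syne3 and Tor1a), edgeR called 0 and DESeq2 called 1.

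Among 12 other genes listed for the inner membrane or the LEM domain 3 fell (25%, against 8.59% of all tested rows). Ankle1, a LEM domain endonuclease, had the largest decrease of the 47, from 1078, 1759 and 730 to 96.5, 76.6 and 89.0 normalized reads (12.7-fold, adjusted p = 0.000886). Nrm, the nurim gene, fell 2.39-fold (adjusted p = 0.0188) and Nemp2 fell 2.08-fold (adjusted p = 0.0256). Nrm lost its call with 1 of the heterozygous libraries A and B or knockout B left out (adjusted p of 0.0733, 0.0847 and 0.0857), and Nemp2 was not called in those cases (0.0884, 0.102 and 0.0722) or without knockout A (0.0524). None of the 12 rose by limma, edgeR or DESeq2, and limma had 0 higher at an unadjusted p under 0.05. Limma called 7.23% of all tested rows higher, so a count of 0 among 12 is near the background. The LEM genes Lemd2 and Lemd3 had log2 differences of -0.08 and -0.02 (adjusted p = 0.793 and 0.97), and were named, like Chmp4b, Vrk1, Chmp7, Spast, Cbx5 and Hdac3, after their values were seen.

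None of the 5 genes for lamin processing passed limma, edgeR or DESeq2, and limma had 1 higher and 0 lower at an unadjusted p under 0.05. Limma called 8.59% of all tested rows lower and 7.23% higher, so a count of 0 among 5 is near the background. These enzymes farnesylate, trim and methylate the lamin tail. Icmt, the methyltransferase, had the smallest p, with 496, 433 and 420 normalized reads in heterozygous and 590, 655 and 708 in knockout libraries (log2 difference 0.53 ± 0.21, SE, adjusted p = 0.11).

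Among 15 genes for breakdown and resealing of the envelope in mitosis 7 fell and 1 rose, against 8.59% and 7.23% of all tested rows. The count of 1 that rose is near the background. Plk1, Ccnb1, Ccnb2 and Cdk1 are also among the 12 proliferation markers given above. The kinase Plk1 fell 7.06-fold (adjusted p = 0.00175), the cyclins Ccnb1 and Ccnb2 fell 6.70-fold and 6.18-fold (adjusted p = 0.00218 and 0.00111), and Cdk1, which phosphorylates lamins at mitotic entry, fell 4.66-fold (adjusted p = 0.0027). Vrk1, the kinase that releases BAF from DNA, fell 2.39-fold (adjusted p = 0.0121), and lost its call if heterozygous A (0.0536), heterozygous B (0.0571) or knockout B (0.0632) was left out. Chmp7, which recruits the membrane-sealing ESCRT complex to the envelope, and Spast, a microtubule-severing enzyme recruited there, fell 1.77-fold and 1.85-fold (adjusted p = 0.0315 and 0.0255). Neither was called without heterozygous A, heterozygous B, knockout A or knockout B (adjusted p of 0.0855, 0.104, 0.0634 and 0.118 for Chmp7 and 0.0821, 0.1, 0.0535 and 0.111 for Spast). Chmp4b, an ESCRT filament subunit, rose 1.76-fold (adjusted p = 0.0489), and was not called by edgeR or without any 1 of the 6 libraries.

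Among 8 genes that tether or mark heterochromatin at the nuclear edge 6 fell and none rose by limma, edgeR or DESeq2, with 0 higher at an unadjusted p under 0.05 in limma. Over all tested rows limma called 8.59% lower and 7.23% higher, so the count of 0 higher is near the background. Ehmt1, a histone H3 lysine 9 methyltransferase, fell from 3147, 3261 and 2250 to 1274, 1119 and 1362 normalized reads (2.28-fold, adjusted p = 0.00743). The HP1 genes Cbx3 and Cbx1 fell 2.37-fold and 2.03-fold (adjusted p = 0.0106 and 0.0124), and the methyltransferase Suv39h2 fell 2.21-fold (adjusted p = 0.0169). Cbx3 was not called without heterozygous A or knockout B (0.0532 and 0.0521), Cbx1 without heterozygous B or knockout B (0.053 and 0.0714), and Suv39h2 without any 1 of these 3 libraries (0.051 to 0.0745). Cbx5, the third HP1 gene and a partner of the lamin B receptor, had a log2 difference of -0.27 ± 0.17 (SE, adjusted p = 0.289), and Hdac3 of -0.11 ± 0.19 (SE, adjusted p = 0.71). Over the 47 genes 7 fell when heterozygous A was left out, 7 when heterozygous B was and 6 when knockout B was. Over all tested rows 581, 469 and 588 fell in those fits, against 1565 with all 6 libraries. None of the 47 rose when any 1 library other than knockout C was left out, and 2 rose without knockout C. Over all tested rows 109 to 972 rose in the former fits and 1956 without knockout C.

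**Figure D4:**
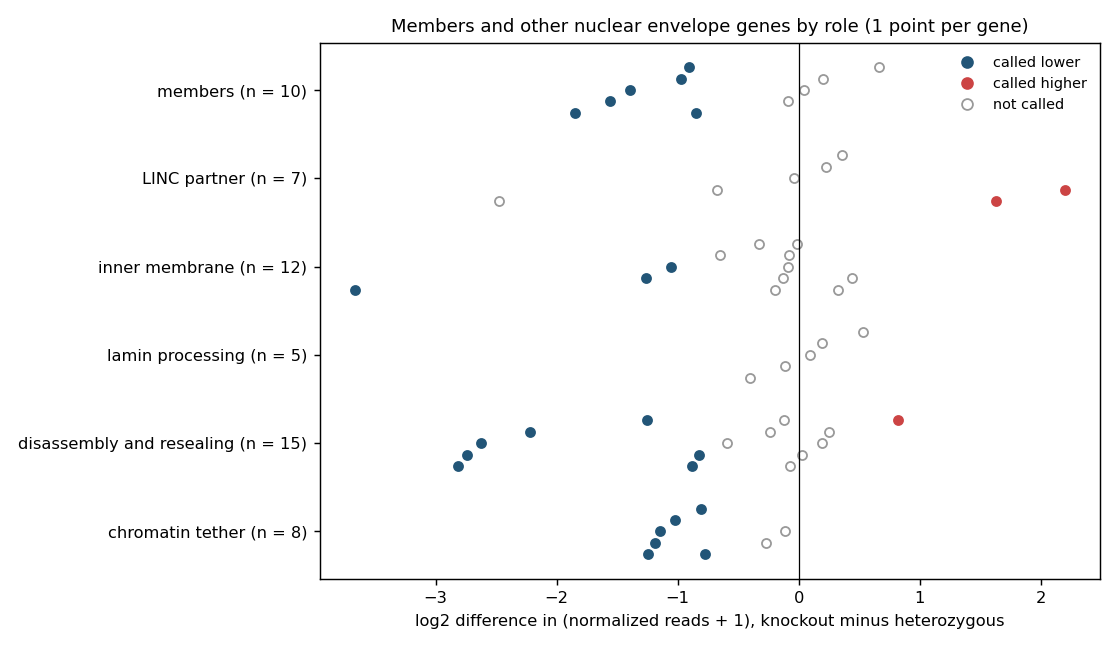
Log2 difference, knockout minus heterozygous (x axis), of the 10 members and of 47 other genes linked to the nuclear envelope. Genes are grouped by role (y axis), 1 point per gene with no error shown. The vertical offset within a group only separates points. Called decreases (blue) gather in the member, disassembly and tether groups, with 3 more among the 12 inner membrane genes. Plk1, Ccnb1, Ccnb2 and Cdk1 of the disassembly group are also proliferation markers. Called increases (red) are Syne1, Sun3 and Chmp4b, and no lamin processing gene was called.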

How the data were processed

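RNA-seq of 6 libraries was used, 3 per genotype. The submitters' processing notes name HISAT2, Subread with featureCounts, DESeq2 and GRCm38, without versions. The deposited per-library values and their mean are a normalized signal: read counts that the authors divided by 1 size factor per library. Dividing by the step of each library gave whole reads for 100% of values (within 0.001 reads). The authors' deposited table also gives log2 fold changes with standard errors, test scores and weights, and p-values with adjusted p-values.

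Tests were made with limma 3.58.1 (mean-variance trend, R 4.3.3) on log2(value + 1) over all 18227 rows with a mean of at least 10, two-sided, comparing genotypes without covariates, and adjusted by the Benjamini-Hochberg method (threshold 0.05). Fold changes are on that scale. Raw counts had been planned for, and the values proved normalized. The count tests edgeR 4.0.16 and DESeq2 1.42.0 on recovered reads were alternatives, with other pseudocounts, filters, scaling, a block for the library letter, and fits that leave out 1 library. The method was tested on simulated data. Intervals are the nominal 95% limits of the limma fit, and the simulation did not measure how often they hold the true value. All pairs of libraries differed beyond sampling noise (lowest chi-square per df 46.6).

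Coordinates and exon lengths are from GENCODE M21, and promoter sequences from RefSeq on GRCm38.p6. The p-values measure the spread between pools of mice. Members and lists were chosen with earlier results of these data known. The naming rule took all members, E2f1 and E2f3, up to 4 called genes of smallest p per role list (or the one of smallest p where none was called), and the 3 rows most correlated with Lmnb1 and with Lmna.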

Additional observations from a re-analysis of the deposited data

How the results depend on the processing

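Lmnb1, Lbr, Tmpo and E2f1 kept their direction and their call under all 15 alternatives, with log2 changes of -2.12 to -1.59, -1.78 to -1.42, -1.61 to -1.26 and -1.48 to -1.24. Their highest adjusted p were 0.04995, 0.042, 0.0399 and 0.0377, each without heterozygous B, so Lmnb1 then lay just under the threshold. The count of lower members was 6 with edgeR, DESeq2 and upper-quartile scaling, 5 without the filter, 5 with the replicate block, 3 without the mean-variance trend, and 3 to 6 when any 1 library was left out (3 without heterozygous B and 3 without knockout B). Lmnb2, Banf1 and Syne2 were the genes not called without the trend. The count of higher members was 0 to 1 with a library left out, the 1 being Lmna without knockout C. Among the 47 other genes the lower count was 8 without the trend, 12 with the block and 6 to 16 with a library left out, and the higher count was 1 without the filter, 0 without the trend, 2 with the block and 0 to 2 with a library left out. Over all rows tested the lower count moved too. It was 1565 in the main fit, 1360 without the filter, 719 without the trend and 1205 with the block. With a library left out it was 469 (heterozygous B) to 2063 (knockout C), and 588 without knockout B. The higher count over all rows was 1318 in the main fit, 1043 without the filter, 317 without the trend and 1105 with the block. With a library left out it was 109 to 1956. Signs turned for genes that were not called: Sun2 was at 0.0035 with upper-quartile scaling, and with a library left out Emd ranged from -0.12 to 0.59, Sun1 from -0.12 to 0.14, Sun2 from -0.24 to 0.088, E2f3 from -0.058 to 0.21 and Hdac3 from -0.23 to 0.020. The cause of these changes was not tested, but fewer samples entered each fit with a library left out. The letters A to C gave correlations of -0.072, 0.021 and -0.10 between same-lettered libraries' deviations, so they were not taken as pairs. With the replicate block Lmnb2 was not called (adjusted p = 0.0726), Chmp7, Spast, Chmp4b and Eif1ad were not (0.0547, 0.0511, 0.107 and 0.0564), and Banf1 and Syne2 were (0.0304 and 0.0475). The difference in Lmna share of the lamins was 18.1 to 32.0 percentage points with a library left out and 28.5 with the longest transcript as length. Sun2, at 206 to 368 reads per library, had the fewest reads of the 10 genes, so it has the largest counting error among them.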
